A study of Saccharomyces cerevisiae with 3 samples.

Results

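The galactose regulon of budding yeast was followed through 3 maps of open chromatin, from yeast with a deletion of sba1, with a deletion of gcn5, and from the wild type. The 7 genes GAL1, GAL10, GAL7, GAL2, GAL3, GAL80 and GAL4 were chosen by name from 6002 protein-coding nuclear genes. Every hypersensitive site that touched the span from 1000 bp upstream of the start codon to the stop codon, called the gene window here, was taken. The maps are DNase-seq, in which nuclei are treated with DNase I, the cut ends are sequenced, and stretches rich in cuts are called hypersensitive sites. All 3 strains are BY4741 (MATa): isolates labelled sba1-/- and gcn5-/- and their parent, labelled wild type. The product of SBA1 is p23, which assists the chaperone Hsp90. Gcn5 acetylates histones as part of the SAGA coactivator complex. All were grown in rich glucose medium, in which the galactose genes are repressed, and no culture in galactose was part of the design. The series title gives the joint action of both proteins on open chromatin as the question. Each strain had 1 library, so no difference has a replicate check and the strains are compared by their values alone, with no test.

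In galactose, the activator Gal4 binds upstream of the galactose genes and recruits SAGA and Mediator. Gal80 holds Gal4 inactive until the sensor Gal3, bound to galactose, relieves it. In glucose, the repressor Mig1 acts on these promoters together with Tup1 and Cyc8, and it also acts on GAL4 itself. The permease Gal2 brings galactose into the cell, and the enzymes of the Leloir pathway, encoded by GAL1, GAL7 and GAL10, convert it into a form that enters glycolysis.

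Read depth is unknown from the site lists. The sba1-/- list held 2439 sites with a median width of 350 bp, the gcn5-/- list 3062 sites with a median of 261 bp, and the wild-type list 3260 sites with a median of 248 bp. The wider sites of the sba1-/- list are a property of the whole list, and their part in the galactose results was not tested. The coding sequence of GCN5 had no site in gcn5-/- cells and none in wild type. That of SBA1 had 12 bp under a site in sba1-/- cells and none in wild type, so neither gene checks its label. Scores are the authors' own, with no stated scale, and are compared within a list only. Positions are on the sacCer3 build.

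The galactose loci differed in how alike the strains were. The promoter shared by GAL1 and GAL10 and the GAL2 promoter each lay under a broad, high-scored site of similar extent in all 3 lists. GAL3, GAL80 and GAL4, which encode the sensor, the inhibitor and the activator, had a site in every list that was wider in both deletion strains than the wild-type site in the window. At GAL80 that wild-type site reached only 4 bp into the window, and at GAL3 the deletion sites also overlapped another wild-type site. Of all wild-type sites found again, 55.3% met a wider site in sba1-/- cells and 49.3% in gcn5-/- cells. GAL7 had no site in sba1-/- cells. In all, 8 sites touched the gene windows in sba1-/- cells, 7 in gcn5-/- cells and 7 in wild type. In sba1-/- cells 6 of the 7 genes had a site in the window, where 52.7% of all genes did. All 7 did in gcn5-/- cells and all 7 in wild type, against 58.7% of all genes in both lists. With a site in all 3 lists there were 6 galactose genes, and 38.9% of all genes. GAL1 and GAL10 share their site, which counts for both.

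**Figure D1:**
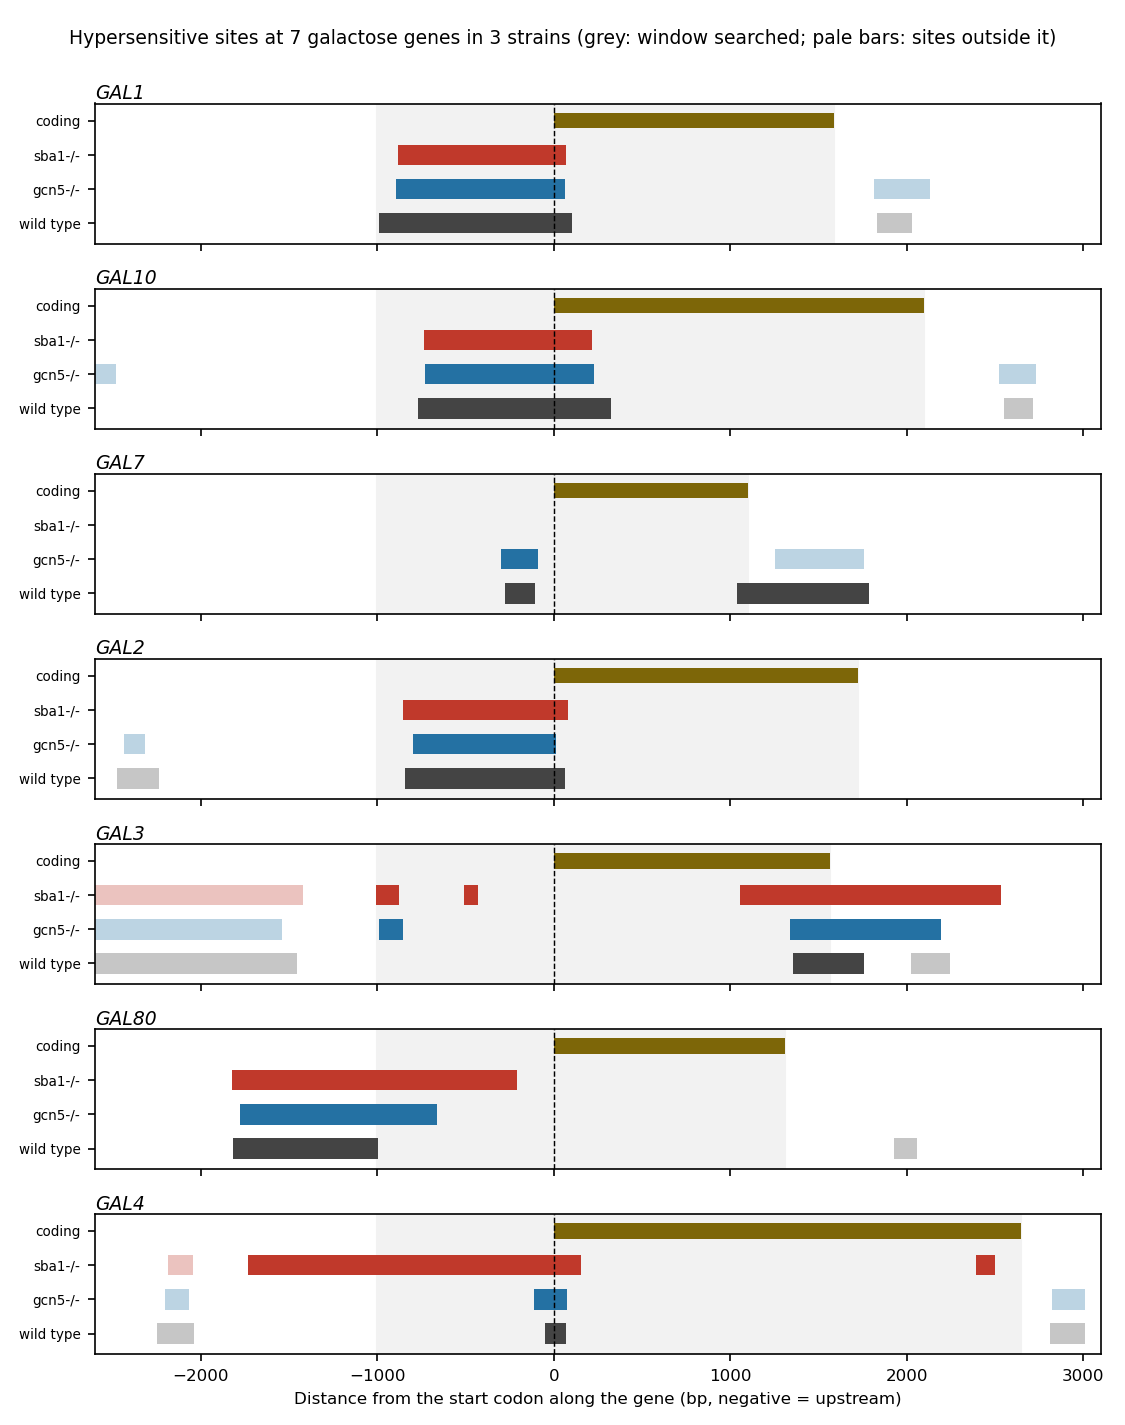
Sites at each of the 7 galactose genes, drawn by distance in bp from the start codon (dashed line) along the gene, with sba1-/- cells above gcn5-/- cells and wild type. Bars are sites, the brown bar is the coding sequence, grey is the window searched, and pale bars are sites outside it, cropped at the panel edge. GAL1, GAL10 and GAL2 have a broad upstream site in every strain. The longest site in the window of GAL3, of GAL80 and of GAL4 is longer in sba1-/- cells than in the other strains.

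GAL1 encodes galactokinase and GAL10 an epimerase with mutarotase activity. They are transcribed away from each other from 668 bp on chromosome II (278353 to 279020). One site covered all 668 bp in each list. The sba1-/- site ran from 278138 to 279088, 951 bp, and scored 5.57, higher than 90.5% of its list. The gcn5-/- site ran from 278126 to 279082, 957 bp, and scored 4.59, higher than 94.1% of its list. The wild-type site ran from 278028 to 279124, 1097 bp, and scored 5.88, higher than 96.4% of its list. The sites of the deletion strains were nearly the same stretch, with 945 bp in common or 98.1% of the bases under either, and both lay wholly inside the wild-type site.

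The shorter sites of the deletion strains ended earlier on both sides. Into GAL1 (YBR020W, 279021 to 280607, plus strand) the site reached 68 bp in sba1-/- cells and 62 bp in gcn5-/- cells, against 104 bp in wild type. Into GAL10 (YBR019C, 276253 to 278352, minus strand) it reached 215 bp in sba1-/- cells and 227 bp in gcn5-/- cells, against 325 bp in wild type. The site width was 0.867 times that of wild type in sba1-/- cells and 0.872 times in gcn5-/- cells. An RNA antisense to GAL10 and on the same strand as GAL1, YNCB0008W, is annotated across the locus from 276805 to 280645. The whole site thus also lies inside that gene. Beyond the parts named here, neither coding sequence had any base under a site.

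Few divergent promoters in these lists were covered throughout. Of 1527 divergent promoters between protein-coding genes, 64.4% were shorter than that of GAL1 and GAL10. Every base was under a site at 13.8% of them in sba1-/- cells, 9.10% in gcn5-/- cells and 8.58% in wild type, and at 5.63% in all 3 lists. Among the 792 of at least 500 bp, 32 or 4.04% were fully covered in all 3 lists, and the GAL1-GAL10 promoter is 1 of these.

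GAL7 (YBR018C, chromosome II 274427 to 275527, minus strand) encodes the uridylyltransferase of the Leloir pathway. No base of its window was under a site in sba1-/- cells. In gcn5-/- cells a site of 209 bp lay at 275619 to 275827 and scored 2.51, higher than 67.3% of its list. In wild type a site of 168 bp lay at 275637 to 275804 and scored 2.24, higher than 56.3% of its list. The gcn5-/- site held the whole wild-type site, and both lay between GAL10 and GAL7 and ended upstream of the GAL7 start codon, by 91 bp in gcn5-/- cells and 109 bp in wild type. Among all genes with a wild-type site in the window, 31.1% had none in sba1-/- cells and 12.1% none in gcn5-/- cells, so a missing site such as that of GAL7 was frequent in the sba1-/- list.

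A further wild-type site, at 273740 to 274492, covered the last 66 bp of GAL7 and the stretch towards KAP104, which encodes a nuclear import receptor. The matching gcn5-/- site, 273769 to 274274, lay past the GAL7 stop codon and so fell outside the window. sba1-/- cells had none there.

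The same held on the other side of the cluster. Between GAL1 and FUR4, the uracil permease gene that follows it, gcn5-/- cells had a site at 280836 to 281152 with a score of 3.12 and wild type one at 280853 to 281048 with a score of 2.28, while sba1-/- cells had none. FUR4 was looked at here after the values had been seen. From the end of KAP104 to the start of FUR4, 7739 bp with the 3 Leloir genes, sba1-/- cells had 1 site that covered 951 bp. gcn5-/- cells had 4 sites that covered 1989 bp, and wild type 4 that covered 2214 bp. The shared promoter was thus the only listed site of this cluster in sba1-/- cells. This span was chosen after the values had been seen. Over the whole lists, only 53.4% of wild-type sites were found again in sba1-/- cells, against 79.4% in gcn5-/- cells.

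GAL2 (YLR081W, chromosome XII 290212 to 291936, plus strand) encodes the galactose permease. Its site ran from 289358 to 290291 in sba1-/- cells, 934 bp, and scored 5.38, higher than 89.7% of its list. The gcn5-/- site ran from 289414 to 290222, 809 bp, and scored 3.61, higher than 89.5% of its list. The wild-type site ran from 289368 to 290274, 907 bp, and scored 4.26, higher than 93.6% of its list. All 3 sites overlapped the start codon. The part in the coding sequence was 80 bp in sba1-/- cells and 11 bp in gcn5-/- cells, against 63 bp in wild type. The sba1-/- site shared 97.1% of the combined bases with wild type, and the gcn5-/- site 89.2%. Between GAL2 and its upstream neighbour EMP46 lie 961 bp, of which 88.9% were under the site in sba1-/- cells, 83.0% in gcn5-/- cells and 87.8% in wild type. The rest of the GAL2 coding sequence held no site in any list.

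**Figure D2:**
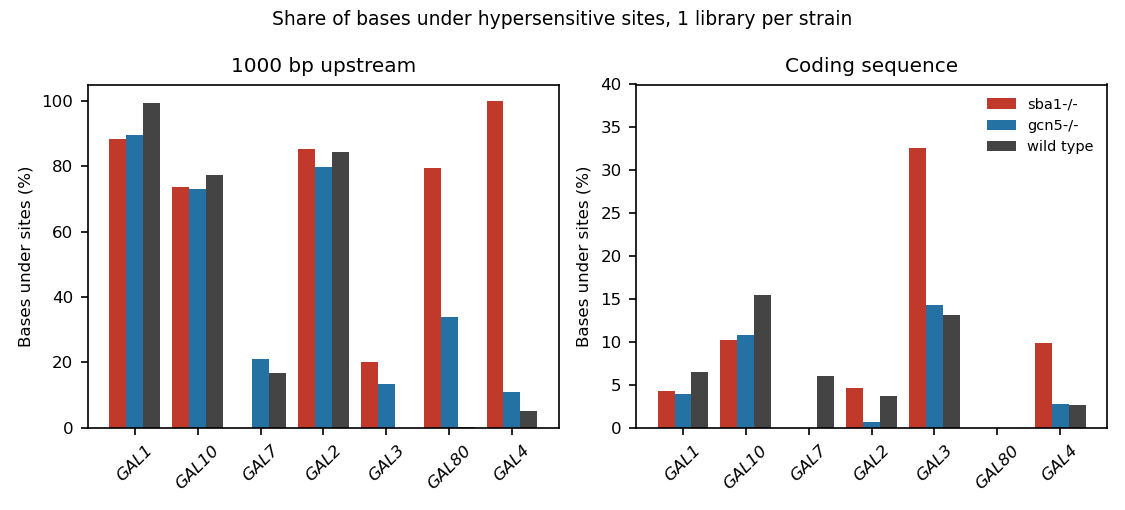
Percent of bases under sites in the 1000 bp upstream of the start codon (left) and in the coding sequence (right) of each galactose gene, with bars for sba1-/- cells, gcn5-/- cells and wild type and 1 library each. Upstream, GAL1, GAL10 and GAL2 stand between 73.0% and 99.3% in all strains, while GAL80 is at 79.4% in sba1-/- cells, 33.8% in gcn5-/- cells and 0.4% in wild type.

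GAL3 (YDR009W, chromosome IV 463434 to 464996, plus strand) encodes the galactose sensor. Its listed sites lay mostly at the end of the gene. In sba1-/- cells a site of 1478 bp at 464487 to 465964, with a score of 5.07, covered the last 510 bp of the coding sequence, all of the next gene YDR010C and 46 bp of SNQ2, a drug efflux transporter gene. In gcn5-/- cells a site of 857 bp at 464773 to 465629, with a score of 3.21, covered the last 224 bp of GAL3 and all of YDR010C. In wild type a site of 399 bp at 464791 to 465189, with a score of 2.61, covered the last 206 bp of GAL3 and 41.7% of YDR010C. Wild type had a separate site at 465458 to 465679, outside the window, which the sba1-/- site covered in full and the gcn5-/- site up to 50 bp from its end. The share of the GAL3 coding sequence under sites was 32.6% in sba1-/- cells and 14.3% in gcn5-/- cells, against 13.2% in wild type.

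Upstream of GAL3 the sites were small and far from the start codon. sba1-/- cells had one of 129 bp at 462427 to 462555 and one of 80 bp at 462926 to 463005, with scores of 1.97 and 1.91, the second higher than 8.61% of its list. gcn5-/- cells had one of 135 bp at 462444 to 462578 that scored 2.06, higher than 30.1% of its list. Wild type had none in the 1000 bp. The sites farther from GAL3 overlap the end of TRP1, a gene of tryptophan synthesis, by 90 bp in sba1-/- cells and 73 bp in gcn5-/- cells. Among all genes with no wild-type site in this upstream window, 24.2% had one in sba1-/- cells and 14.2% in gcn5-/- cells. The nearest upstream site ended 428 bp from the GAL3 start codon in sba1-/- cells, 855 bp in gcn5-/- cells and 1453 bp in wild type, so no list had a site next to it.

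GAL80 (YML051W, chromosome XIII 171594 to 172901, plus strand) encodes the inhibitor of Gal4. Its upstream window overlaps SUR7, the gene of a plasma membrane protein, and the sites there lie on SUR7 and upstream of it. The sba1-/- site ran from 169768 to 171387, 1620 bp, and scored 3.75, higher than 83.4% of its list, and covered all of SUR7. The gcn5-/- site ran from 169815 to 170931, 1117 bp, and scored 2.63, higher than 72.5% of its list, and covered 58.3% of SUR7. The wild-type site ran from 169774 to 170597, 824 bp, and scored 2.18, higher than 49.5% of its list, and covered 21.6% of SUR7. The left ends of the sites lay close together, and the right end lay nearer to GAL80 in both deletion strains.

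The sba1-/- site passed SUR7 into the 283 bp in front of GAL80, where it covered 77 bp and ended 206 bp from the start codon. The gcn5-/- site ended 662 bp away and the wild-type site 996 bp away. Wild type counts as having a site in the window only through 4 bp. With at least 25 bp of overlap asked for, an alternative chosen after the data were seen, the wild-type count is 6 of 7 genes. The GAL80 coding sequence had no base under a site in any list.

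GAL4 (YPL248C, chromosome XVI 79711 to 82356, minus strand) encodes the activator, and its start codon lay under a site in each list. The sba1-/- site ran from 82204 to 84089, 1886 bp, and scored 3.58, higher than 81.9% of its list. The gcn5-/- site ran from 82283 to 82467, 185 bp, and scored 2.07, higher than 31.6% of its list. The wild-type site ran from 82286 to 82408, 123 bp, and scored 1.94, higher than 11.1% of its list. The wild-type site was thus among the lowest-scored of its list. It was not among the 2439 best-scored wild-type sites, as many as the sba1-/- list holds.

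The 268 bp between GAL4 and YPL247C, the gene upstream, were covered at 100% in sba1-/- cells and 41.4% in gcn5-/- cells, against 19.4% in wild type. The sba1-/- site went on over 93.2% of YPL247C, which had no base under a site in gcn5-/- cells or in wild type. Into the GAL4 coding sequence the site at the start codon reached 153 bp in sba1-/- cells and 74 bp in gcn5-/- cells, against 71 bp in wild type. A second site in sba1-/- cells, 110 bp at 79856 to 79965 near the end of GAL4, scored 1.90, higher than 7.18% of its list, and had no counterpart in the others. An antisense RNA, YNCP0002W, is annotated over GAL4 from 79562 to 82648.

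**Figure D3:**
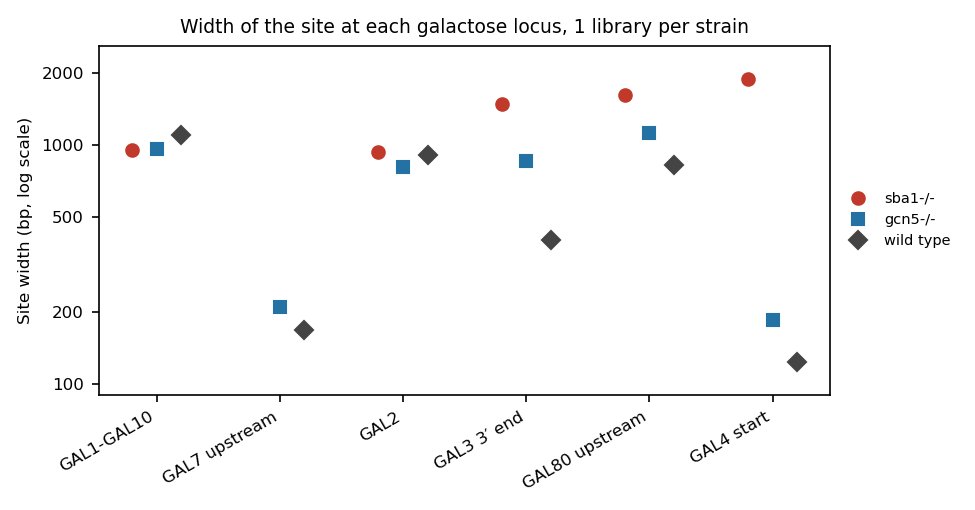
Width in bp, on a log scale, of the site at each galactose locus in sba1-/- cells (circles), gcn5-/- cells (squares) and wild type (diamonds), 1 library each; GAL7 has no point for sba1-/- cells. Widths at GAL1-GAL10 and GAL2 lie between 809 and 1097 bp, while the GAL4 site is 1886 bp in sba1-/- cells, 185 bp in gcn5-/- cells and 123 bp in wild type.

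Widths were compared with the wild-type site in the window. By that measure the sites at GAL3, GAL80 and GAL4 differed more between strains than those at GAL1-GAL10 and GAL2. These are not all promoter sites: at GAL3 they lie at the end of the gene, and at GAL80 mostly on and upstream of SUR7. GAL7 had no site in sba1-/- cells, and its upstream site in gcn5-/- cells was 1.24 times as wide as in wild type. In sba1-/- cells the site was 15.3 times as wide as in wild type at GAL4, 3.70 times at GAL3 and 1.97 times at GAL80. In gcn5-/- cells it was 1.50 times as wide at GAL4, 2.15 times at GAL3 and 1.36 times at GAL80. At GAL3 these ratios are to the wild-type site in the window. Against the summed 621 bp of both wild-type sites that the deletion sites overlap, they were 2.38 in sba1-/- cells and 1.38 in gcn5-/- cells, and against their span of 889 bp, 1.66 in sba1-/- cells and 0.964 in gcn5-/- cells. At GAL2 the ratio was 1.03 in sba1-/- cells and 0.892 in gcn5-/- cells, and at GAL1-GAL10 it was 0.867 and 0.872. By the span, the gcn5-/- site at GAL3 thus differed less from wild type than those at GAL1-GAL10 and GAL2. Wider counterparts were common in the whole lists. Of wild-type sites found again in sba1-/- cells, 55.3% met a wider site there, 24.8% one more than 3 times as wide and 6.61% one more than 10 times as wide. Of those found again in gcn5-/- cells, 49.3% met a wider site and 7.97% one more than 3 times as wide. The GAL4 ratio in sba1-/- cells lay in the upper part of that range, and it starts from a narrow wild-type site.

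The start codons of GAL1, GAL10, GAL2 and GAL4 lay under a site, and they were the same 4 of 7 genes in each list. Over all genes the start codon was under a site at 21.4% in sba1-/- cells, 18.8% in gcn5-/- cells and 19.6% in wild type, and at 11.0% in all 3 lists. Those of GAL7, GAL3 and GAL80 lay under none, as did 69.4% of all start codons. This count was chosen after the sites had been seen.

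In the upstream window, 6 galactose genes had a site in sba1-/- cells, 7 in gcn5-/- cells and 6 in wild type, against 46.1%, 51.4% and 50.8% of all genes. The upstream windows of the 7 genes hold 6332 distinct bases, because those of GAL1 and GAL10 overlap. Sites covered 60.0% of them in sba1-/- cells and 40.2% in gcn5-/- cells, against 34.2% in wild type. Counted gene by gene over all genes, the upstream share was 23.6% in sba1-/- cells, 20.8% in gcn5-/- cells and 19.1% in wild type. The pooled galactose upstream bases were thus covered more than the average of all genes in every list, but not those of each gene. In wild type GAL1, GAL10 and GAL2 lay above 19.1%, at 99.3%, 77.2% and 84.4%. GAL7, GAL3, GAL80 and GAL4 lay below it there, at 16.8%, 0%, 0.4% and 5.2%. In gcn5-/- cells only GAL3 and GAL4 lay below 20.8%, at 13.5% and 11.1%. In sba1-/- cells only GAL7 and GAL3 lay below 23.6%, at 0% and 20.2%. The sba1-/- excess over wild type came mostly from GAL80 and GAL4, with 794 and 1000 bp against 4 and 52 bp in wild type.

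Coding sequence of the galactose genes was covered at a share near that of all genes in the deletion strains and above it in wild type. Of 12030 coding bases, 9.44% were under sites in sba1-/- cells, 4.97% in gcn5-/- cells and 6.94% in wild type. Over all genes the shares were 9.44%, 5.22% and 5.28% in the same strains. Coding sites were listed for 5 galactose genes in sba1-/- cells, 5 in gcn5-/- cells and 6 in wild type, where 32.2%, 31.5% and 33.6% of all genes had one. In each case they were the ends of sites that reached in from outside, apart from the small sba1-/- site in GAL4.

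Taken over the whole window, 4 galactose genes had more bases under sites in sba1-/- cells than in wild type (GAL2, GAL3, GAL80 and GAL4) and 3 had fewer. Of all genes, 35.7% had more and 35.0% fewer. In gcn5-/- cells 3 had more (GAL3, GAL80 and GAL4) and 4 fewer, and of all genes 32.5% had more and 33.0% fewer. The median share of the window under sites was 34.3% in sba1-/- cells, 14.6% in gcn5-/- cells and 11.1% in wild type, where the medians over all genes were 2.64%, 4.67% and 4.77%.

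At the level of sites, 5 of the 7 wild-type sites in galactose windows were found again in sba1-/- cells, where 53.4% of all wild-type sites were. All 7 were found again in gcn5-/- cells, where 79.4% of all were. Both sites not found again touched the GAL7 window, and the 753 bp site at the end of GAL7 did so by only 66 bp. Of the galactose sites of the deletion strains, 3 of 8 in sba1-/- cells and 1 of 7 in gcn5-/- cells had no wild-type counterpart, where 35.6% and 18.3% of all sites had none. The shares with no wild-type counterpart are near those of the whole lists.

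A list of 22 further genes of galactose use and glucose repression was set beside the 7. In sba1-/- cells 19 of them had a site in the gene window, in gcn5-/- cells 15 and in wild type 14, where 52.7%, 58.7% and 58.7% of all genes did, and 13 had one in all 3 lists, where 38.9% of all genes did. More bases of the window were under sites than in wild type for 15 of the 22 in sba1-/- cells and fewer for 5, where of all genes 35.7% had more and 35.0% fewer. In the gcn5-/- list the count was more for 9 and fewer for 7, where of all genes 32.5% had more and 33.0% fewer. The median share of the window was 20.4% in sba1-/- cells and 11.4% in gcn5-/- cells, against 7.04% in wild type. Over all genes the medians were 2.64%, 4.67% and 4.77% in the same strains.

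Among these are 8 genes of glucose repression. Of the 8, 6 had more bases under sites in sba1-/- cells than in wild type and 2 fewer, where of all genes 35.7% had more and 35.0% fewer. For gcn5-/- cells 2 had more and 4 fewer, against 32.5% and 33.0% of all genes. HXK2, whose hexokinase is needed for glucose repression, had 43.5% of its window under a site in sba1-/- cells and 21.0% in gcn5-/- cells, and none in wild type. MIG2, which encodes a repressor related to Mig1, had 43.1% in sba1-/- cells and none in gcn5-/- cells or in wild type. MIG1 itself had 40.8% in sba1-/- cells and 31.6% in gcn5-/- cells, against 34.6% in wild type.

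Of the 6 further Gal4 targets, 4 had more bases under sites in sba1-/- cells than in wild type and none had fewer. Of all genes, 35.7% had more and 35.0% fewer. The same 4 had more in gcn5-/- cells and none had fewer, against 32.5% and 33.0% of all genes. The share of all genes with more in both strains was not counted. Counting the upstream window alone, 2 of the 6 targets had more and 1 fewer in sba1-/- cells, and 4 had more and none fewer in gcn5-/- cells. The share of all genes was not counted for the upstream window alone, so these counts have no background. FUR4 had no base of its upstream window under a site in sba1-/- cells, against 19.6% in wild type, and its larger share of the whole window there came from coding sites of 182 and 75 bp. LAP3, which encodes a cysteine aminopeptidase, had 39.2% of its window under sites in sba1-/- cells and 12.6% in gcn5-/- cells, against 0.803% in wild type. PGM2, a phosphoglucomutase gene, had 26.8% in sba1-/- cells and 17.5% in gcn5-/- cells, against 4.87% in wild type. GCY1, an aldo-keto reductase gene, had 2.89% in sba1-/- cells and 12.3% in gcn5-/- cells, and none in wild type. The 2 Gal4 targets without a site in any list were MTH1 and PCL10, named after their values were seen. The share of all genes without a site in any list was not counted. Of the 5 genes of the Snf1 kinase, which relieves glucose repression, 3 had more bases in sba1-/- cells and 2 fewer, against 35.7% and 35.0% of all genes. For gcn5-/- cells 2 had more and 1 fewer, against 32.5% and 33.0% of all genes.

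**Figure D4:**
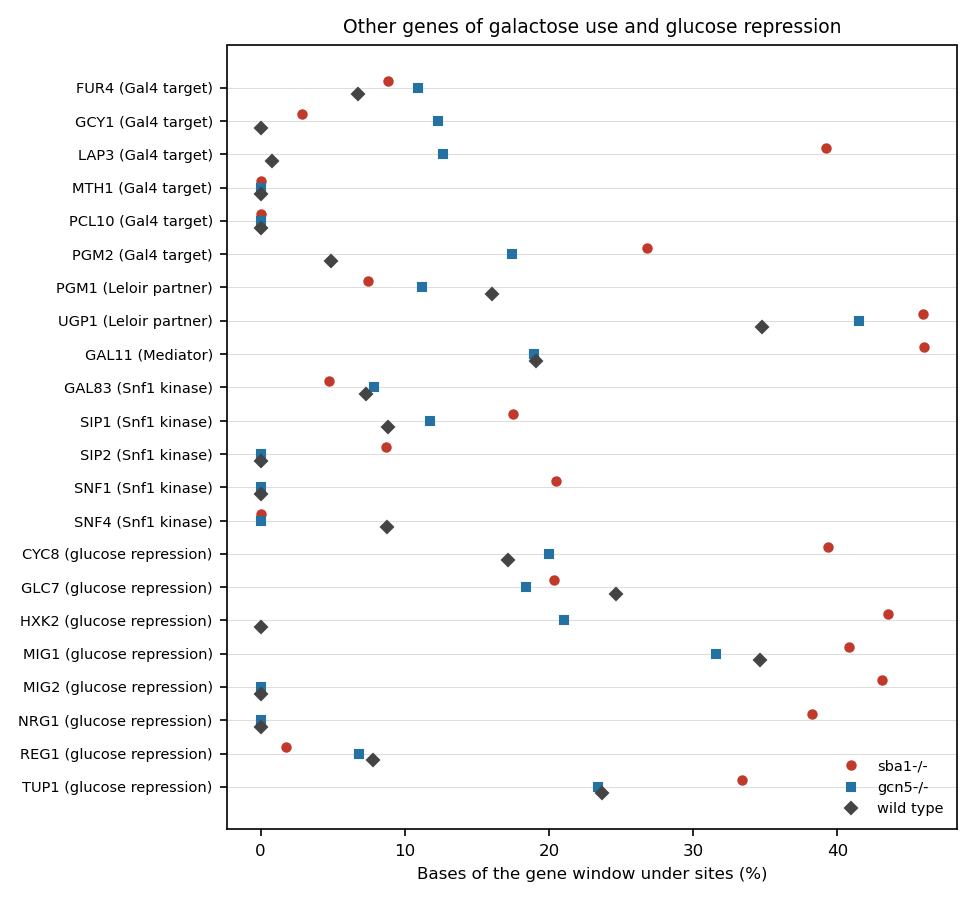
Percent of the gene window under sites for 22 further genes, grouped by role, in sba1-/- cells (circles), gcn5-/- cells (squares) and wild type (diamonds), 1 library each. HXK2, MIG2 and LAP3 are at 43.5%, 43.1% and 39.2% in sba1-/- cells and at or below 0.803% in wild type.

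By the share of the window under sites over the 3 lists, the genes most like GAL1 were YGR035W-A, DIP5 and PEX27. GAL1 had 36.8% in sba1-/- cells, 37.0% in gcn5-/- cells and 42.4% in wild type. The summed absolute difference from GAL1 was 1.22 percentage points for YGR035W-A, 2.57 for DIP5, an amino acid permease gene, and 3.26 for PEX27, a gene of peroxisome biogenesis. With 3 lists this likeness is a description of coverage only.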

How the data were processed

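DNase-seq of nuclei from 3 strains was used, as 1 list of sites per strain. Per the submitters' processing notes, Bowtie 0.12.7 and the sacCer3 build were used; which caller listed the sites, and at what threshold, has not been given in the sources used here. The authors deposited a score per site with no stated scale, which was used only within a list. Depth is unknown, which limits how far a missing site can be read as closed chromatin.

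Gene positions came from the RefSeq table of assembly R64, the same sequence as sacCer3, with strand read from the systematic names. A site counted at 1 bp of overlap. Positions are 1-based. Python 3.11.15, numpy 2.4.6, scipy 1.17.1 and matplotlib 3.10.9 were used, and the overlap code was tested on simulated sites. A search for Gal4 and Mig1 motifs had been intended and is not part of this work, since it needs sequence.

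The 7 genes and the 22 further genes were chosen with earlier results of these data known. All 7 were named, with up to 3 further genes per deletion strain by the largest difference in window coverage, the 3 genes nearest to GAL1 and neighbours under a site. MIG1, the counts of start codons, divergent promoters and width ratios, and the intergenic spans were chosen after the data were seen. Alternatives covered the upstream window, the overlap rule, stricter, equal-sized and merged lists, and fixed site widths.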

Additional observations from a re-analysis of the deposited data

Results flagged for a closer look

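In the upstream share of GAL7 and in the upstream and coding shares of GAL2, one deletion strain lay above wild type and the other below it. These differences, each between single libraries, were not tested. The share of the 1000 bp upstream of GAL7 under sites fell by 16.8 percentage points in sba1-/- cells, where no site was listed, and was 4.1 points higher in gcn5-/- cells than in wild type. For GAL7 this holds upstream only: the share of the whole window was 0% in sba1-/- cells and 9.95% in gcn5-/- cells, against 11.1% in wild type, and the coding share was 0% in both deletion strains, against 5.99% in wild type. At GAL2 the upstream share was 1.0 point higher in sba1-/- cells and fell by 4.6 points in gcn5-/- cells, and the coding share was 0.986 points higher in sba1-/- cells and fell by 3.01 points in gcn5-/- cells. The GAL2 differences are shifts of the ends of a single site.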

How the results depend on the processing

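Of 90 values recomputed under the alternatives, 76 stayed within 1.5 times the count or within the binomial interval of the share, and 14 did not. For shares of bases that interval takes every base as independent. Bases under the same site are not, so the tally is a rough guide only. The number of galactose genes with a site in the window, 6 in sba1-/- cells, 7 in gcn5-/- cells and 7 in wild type, ranged over 5 to 6 in sba1-/- cells, 6 to 7 in gcn5-/- cells and 5 to 7 in wild type. The number with a site in the upstream window ranged lower, over 5 to 6 in sba1-/- cells, 5 to 7 in gcn5-/- cells and 4 to 6 in wild type. With the better-scored 50% of each list, coding bases under sites were 8.53% in sba1-/- cells, 4.36% in gcn5-/- cells and 6.35% in wild type, and 3 and 4 of 5 wild-type sites were found again in the sba1-/- and gcn5-/- lists. With lists cut to the same length by score the wild-type coding share was again 6.35%. With all sites given a fixed width of 250 bp, the coding shares were 2.08% in sba1-/- cells, 0.881% in gcn5-/- cells and 2.20% in wild type, so sba1-/- cells no longer lay above wild type, the shared GAL1-GAL10 promoter was covered at 37.4% in each strain, and 3 of 5 wild-type sites were found again in sba1-/- cells. When the overlap had to reach 50% of each site, 3 of 7 were found again there. The fixed width itself sets the coverage in that alternative. The tally took sites found again as counts. With the better-scored lists and with the fixed width, 5 wild-type sites were considered, not 7. For the other alternatives the cause was not tested. No paired analysis was possible because each strain had 1 library. Depth is unknown, and the wild-type GAL4 site, with a score of 1.94, lies near the lowest score of its list, 1.90.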
